A study of Mus musculus with 12 samples.

Results

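Haploid germ cell transcripts were described on 12 arrays of visceral adipose tissue from male C57Bl/6J mice, an inbred laboratory strain, at 20 weeks of age. The 3 arrays on which the protamine gene Prm2 exceeded a log2 intensity of 10 were set beside the other 9, and the genes whose values followed Prm2 were kept. These 3 arrays were TFA replicate 2, ASP+MSG+TFA replicate 3 and ASP+TFA replicate 2, written TFA 2, ASP+MSG+TFA 3 and ASP+TFA 2 from here on, as are the other arrays. A gene followed Prm2 if its Pearson correlation with Prm2 over the 12 arrays was at least 0.8 and larger than the size of its correlations with Crisp1 (epididymis) and Svs5 (seminal vesicle), and if its mean was at least 1 log2 unit higher on the 3 arrays. This held for 97 of 20358 genes. Both the arrays and the genes were thus chosen by measured values, so their differences are given as a description and were not tested.

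All mice ate a trans fat diet (TFA) with 20% w/w shortening that held 8.68% w/w trans fatty acids. Drinking water held aspartame (ASP, a dipeptide sweetener) at 0.25 g/L together with monosodium glutamate (MSG, a flavour enhancer) at 0.75 g/L in the ASP+MSG+TFA group, aspartame alone in ASP+TFA, MSG alone in MSG+TFA and no additive in TFA. Dams were put on the diets when 6 weeks old and mated after 3 weeks, and the 15 male offspring of each diet were weaned at 4 weeks and kept on them. Each diet had 3 arrays, and RNA from several mice was pooled on each array. By the study's methods the visceral fat comprised the epididymal pads, other fat near the reproductive organs, and omental and mesenteric fat, and which of these entered a pool is not given in the sources used here. In pooled tissue, fewer cells of a type cannot be told apart from less RNA per cell.

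In the testis, spermatogonia divide, spermatocytes pass through meiosis, and the haploid spermatids that result are reshaped into sperm. Spermatids pack their DNA by exchanging histones first for transition proteins (Tnp1, Tnp2) and then for protamines (Prm1, Prm2), while the tail, its sheath of energy enzymes and the acrosome, the vesicle that opens at the egg, are built. Many of their transcripts are made in meiosis or shortly after it and stored. Sperm leave the testis through the epididymis, which lies against the epididymal fat pad and secretes proteins such as Crisp1 and Lcn5.

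Promoters of 4 of these genes are shown, the first 3 because the nuclear packing genes Tnp2, Prm2 and Prm1 lie in 1 cluster, with Prm3 among them, and were high on the same arrays, and Ldhc because it was near the level of dim genes outside the 3 arrays. The windows run from 250 bases before to 50 after a RefSeq start of each gene (assembly GRCm38.p6, all on the strand of the gene, 5′ to 3′). Capitals mark matches on either strand to TGACGT, the core of the cAMP response element TGACGTCA, to TGACTTCA, which differs from that element, and to TATAAA.
Prm2 (chr16:10792056-10792355, minus strand): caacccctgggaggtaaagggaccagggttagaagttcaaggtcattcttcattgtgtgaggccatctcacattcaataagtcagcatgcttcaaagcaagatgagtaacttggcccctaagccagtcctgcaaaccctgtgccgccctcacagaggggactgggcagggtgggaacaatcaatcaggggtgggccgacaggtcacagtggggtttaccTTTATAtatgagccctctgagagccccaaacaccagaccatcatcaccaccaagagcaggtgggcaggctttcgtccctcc
Prm1 (chr16:10796774-10797073, minus strand): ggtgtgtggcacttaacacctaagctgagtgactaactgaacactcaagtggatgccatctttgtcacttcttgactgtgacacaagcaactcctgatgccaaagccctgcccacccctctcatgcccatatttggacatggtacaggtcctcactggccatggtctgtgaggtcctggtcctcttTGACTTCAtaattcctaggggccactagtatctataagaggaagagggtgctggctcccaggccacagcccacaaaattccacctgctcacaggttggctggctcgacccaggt
Tnp2 (chr16:10788606-10788905, minus strand): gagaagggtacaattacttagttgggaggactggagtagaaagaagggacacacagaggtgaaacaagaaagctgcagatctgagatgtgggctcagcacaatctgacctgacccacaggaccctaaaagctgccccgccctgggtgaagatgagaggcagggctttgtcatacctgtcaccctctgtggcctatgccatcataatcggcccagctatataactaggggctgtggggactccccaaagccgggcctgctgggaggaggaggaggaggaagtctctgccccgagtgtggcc
Ldhc (chr7:46861013-46861312, plus strand): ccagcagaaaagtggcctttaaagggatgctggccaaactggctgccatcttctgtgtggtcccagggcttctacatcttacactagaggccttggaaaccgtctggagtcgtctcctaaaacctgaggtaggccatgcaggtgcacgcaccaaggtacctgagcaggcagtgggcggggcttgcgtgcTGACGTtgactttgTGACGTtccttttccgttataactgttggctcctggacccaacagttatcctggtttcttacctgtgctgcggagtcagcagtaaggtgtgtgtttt
The windows of Tnp2, Prm2 and Prm1 lie within 8468 bases of chromosome 16. Prm1 held TGACTTCA from base -64 to -57, and the Ldhc window shown held TGACGT from -61 to -56 and again from -47 to -42. Ldhc has a further RefSeq window (chr7:46861237-46861536), not shown, which held no match to any of these letters. In Prm2 a TATAAA on the opposite strand ran from -31 to -26, and the Tnp2 window held no match to any of these letters. RefSeq windows were matched for 78 of the 97 genes. TGACGT, which also counts the full element, was found in 7 of the 78 (8.97%) and in 10.2% of the 15765 measured genes with a window, and TGACTTCA in 2 of 78 (2.56%) and 1.54%. For TATAAA the shares were 12.8% of the 78 genes and 13.7% of all; none of these shares was tested. A match describes letters and not a bound site.

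The 3 nuclear packing genes given as markers were high on the same 3 arrays. Prm2 read 11.77 on TFA 2, 11.17 on ASP+MSG+TFA 3 and 10.50 on ASP+TFA 2, against a lowest value of 5.91, a median of 7.95 and a highest value of 9.82 on the other 9 arrays. The array just inside the limit of 10 was thus ASP+TFA 2 and the one just outside it TFA 3, which were 0.68 apart, less than the spread of the 9 arrays (SD 1.25). Prm2 was graded rather than absent elsewhere, and only ASP+TFA 3 lay near the level of dim genes. Prm1 had 11.57, 10.97 and 10.32 on the 3 arrays, and 6.53, 8.23 and 9.11 as the lowest, median and highest of the others. Tnp2 stood at 10.25, 9.67 and 8.68, against 5.81, 6.62 and 7.12. The groups did not overlap for any of the 3 genes, and the order of the 3 arrays was the same in each. Mean differences were 3.05 for Prm2, 2.87 for Prm1 and 3.05 for Tnp2, which are 8.26-, 7.31- and 8.27-fold. Tnp1, the other transition protein gene, read 8.59, 7.92 and 6.95 on the same arrays and reached 6.83 on MSG+TFA 2. Its correlation with Prm2 of 0.74 left it outside the rule.

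**Figure D1:**
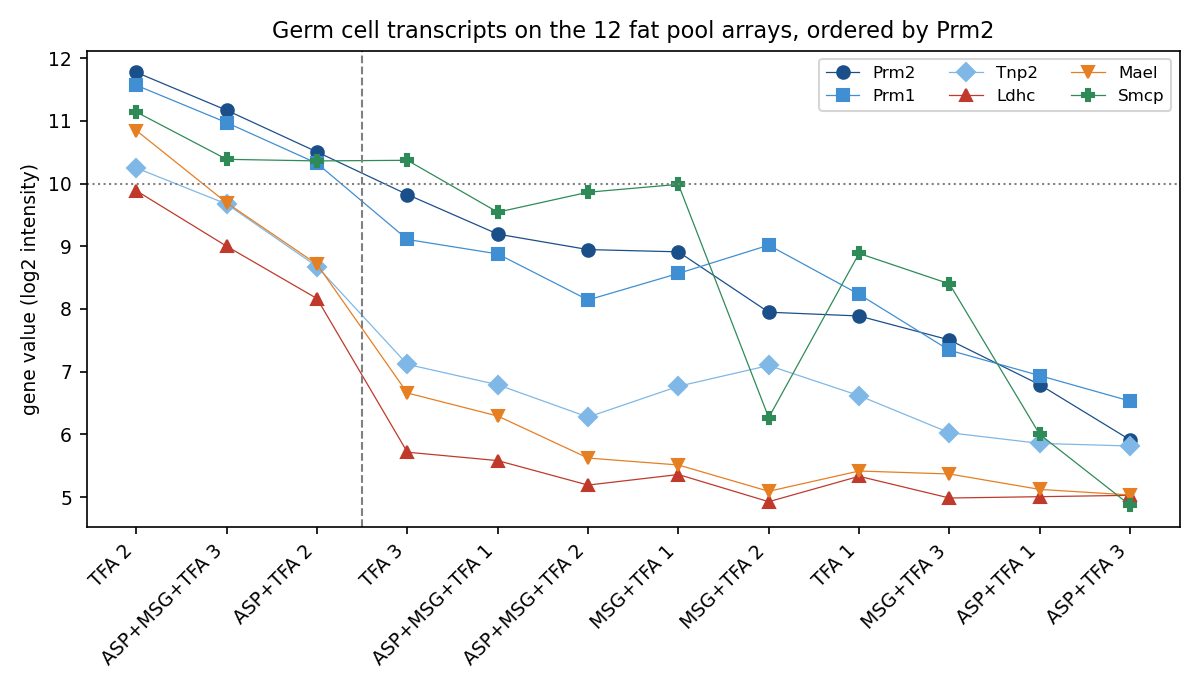
Gene values (log2 intensity) of 6 genes on each of the 12 arrays, which are ordered by Prm2; the dashed line parts the 3 arrays with Prm2 above 10 from the other 9 and the dotted line marks 10. Prm1 declines along this order except on ASP+MSG+TFA 2, where it is lower than on the next array, and on MSG+TFA 2, where it is higher than on the array before, Ldhc and Mael drop at the dashed line, and Smcp stays at 8.40 or more on 6 further arrays.

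Adipocyte genes, the markers of the labelled tissue, were at a like high level on all arrays. The median of 18 adipocyte genes, led by the fatty acid binding protein Fabp4 and the carbonic anhydrase Car3, lay between 12.40 and 12.78 on the 3 arrays and between 12.52 and 12.81 on the other 9. Other transcripts did not line up with Prm2. TFA 2 and ASP+MSG+TFA 3 were among the 4 arrays low in Crisp1 (5.60 and 6.50), whereas ASP+TFA 2 was high in Crisp1 (13.08) and Svs5 (14.14). TFA 2 alone carried transcripts of exocrine pancreas, with a list median of 11.25 against 5.27 to 6.52 elsewhere, and was one of 4 arrays whose dim signal was raised. These 4 were TFA 1, TFA 2, MSG+TFA 1 and MSG+TFA 2, and no array of an aspartame diet was among them. On those 4 the median of 1163 olfactory and vomeronasal receptor genes was 6.40 to 6.76, against 5.44 to 5.66 on the other 8. The part of these features in the differences below was not tested as a cause, and each array is therefore also set beside arrays that share them.

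Among the 97 genes the mean difference ran from 1.08 to 4.18 log2 units, with a median of 1.84 (3.58-fold), while the median over all genes was -0.03. A difference of at least 2 was found for 41 of them and of at least 3 for 13. All 3 arrays lay above all 9 others for 91 of the 97, against 1.46% of all genes, a share that the choice of the genes largely fixes. The 6 that overlapped were Smcp, Odf1, 1110017D15Rik, Tex35, Ak8 and Vsig1. No gene mirrored the pattern, since 13 genes (0.0639%) lay lower on all 3 arrays than on the other 9 and none of them by 1 log2 unit. Correlations with Prm2 ran from 0.80 to 0.98, those with Crisp1 from -0.58 to 0.30 and those with Svs5 from -0.18 to 0.36. Just inside the limit of 0.8 were Mlf1 (0.801, difference 1.27, and -0.16 with its brightest probe set), Galntl5 (0.802, 1.27) and 1110017D15Rik (0.806, 1.25). Just outside it were Pmis2 (0.796, difference 1.89), 1700029F12Rik (0.796, 2.05) and Tex29 (0.795, 1.19), so the limit parts genes of like size.

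**Figure D2:**
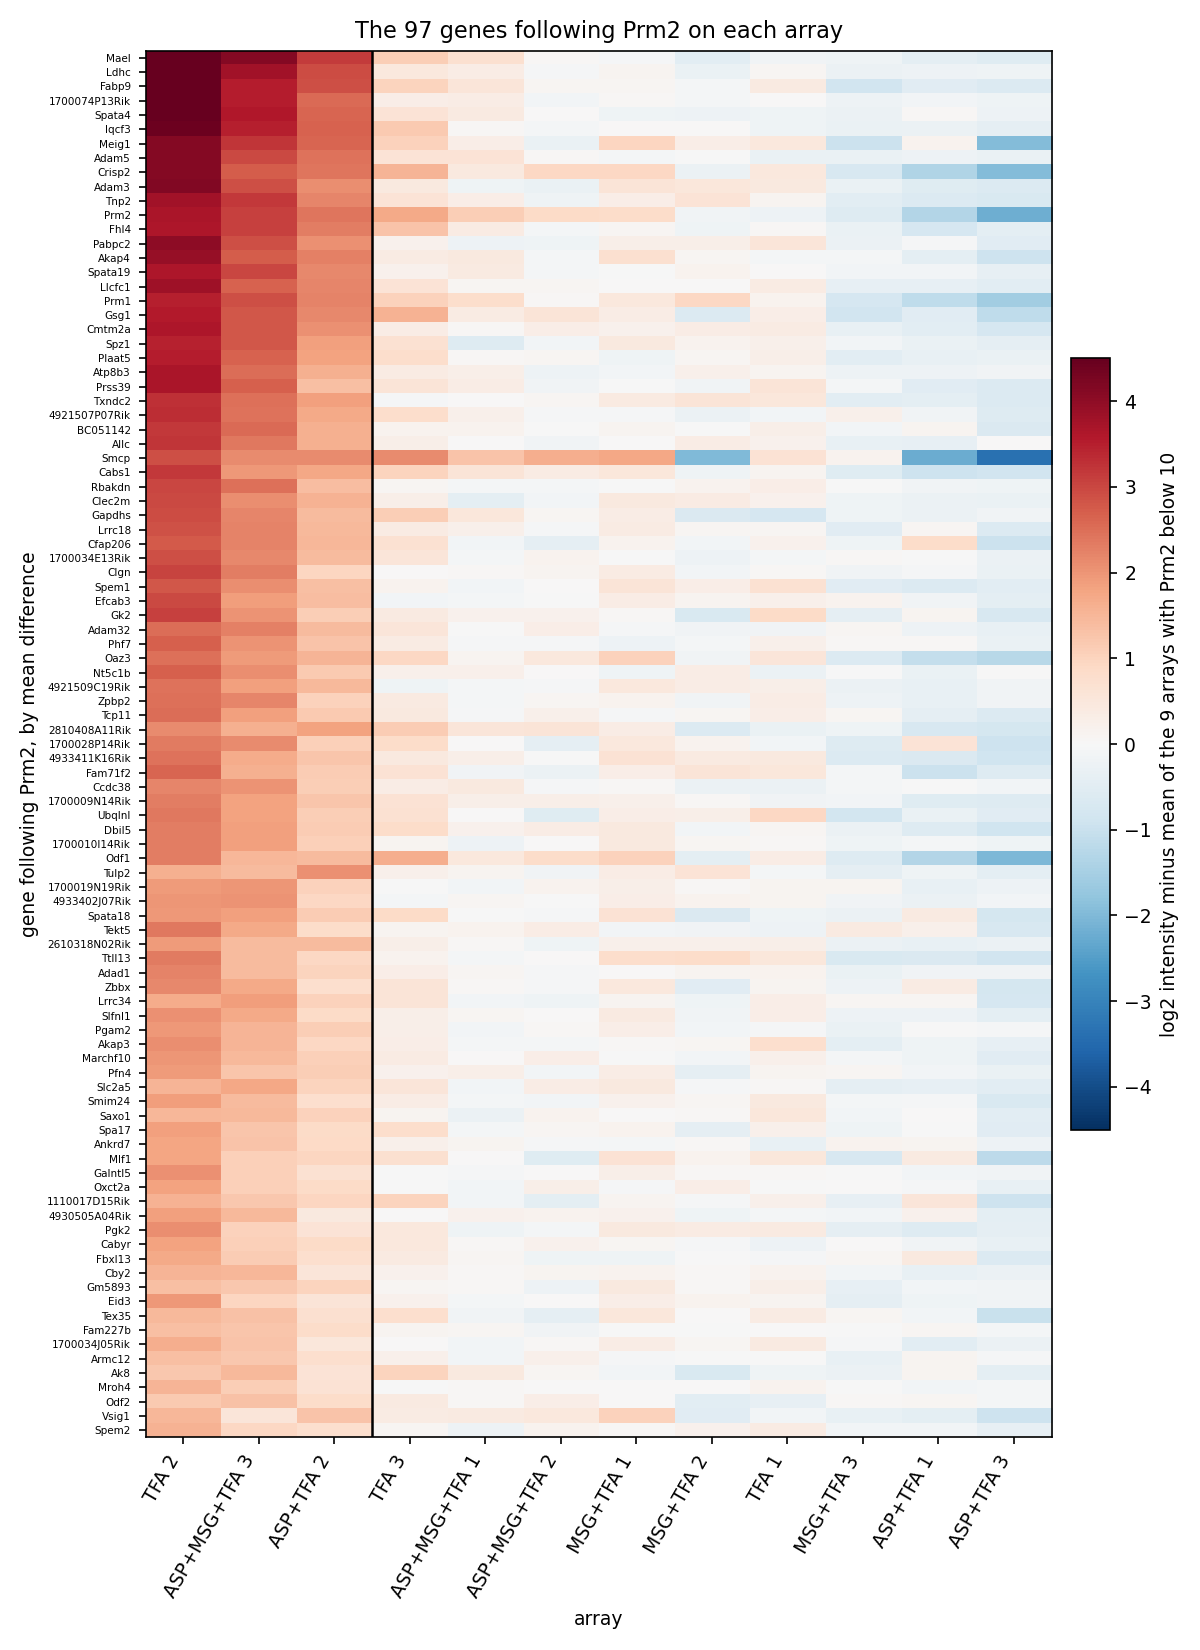
Log2 intensity of the 97 genes following Prm2 (rows, by mean difference) on the 12 arrays (columns, by Prm2), each minus the gene's mean on the 9 arrays with Prm2 below 10. All rows are raised left of the line on TFA 2, ASP+MSG+TFA 3 and ASP+TFA 2; Smcp, Odf1, Crisp2 and Prm2 also vary strongly right of it.

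The largest difference belonged to Mael, a protein of germ cell granules that holds transposons silent in meiosis. Mael read 10.85 on TFA 2, 9.69 on ASP+MSG+TFA 3 and 8.71 on ASP+TFA 2, against 5.03 to 6.66 (median 5.42) on the other arrays, a mean difference of 4.18 or 18.2-fold. Of its 12 probe sets 10 were higher on all 3 arrays, but not the brightest, which differed by 0.11. Spata4, a spermatogenesis gene, followed the same form with 9.48, 8.58 and 7.62 against 4.74 to 5.60 (median 4.81). Iqcf3 read 10.03, 9.11 and 8.24 against 5.19 to 6.76 (median 5.52). On the 9 arrays these genes lay near the receptor genes, whose 90th percentile of mean levels was 6.61, so a fold from such levels is limited by dim signal. This held for 80 of the 97 genes, whose mean on the 9 arrays was below 6.61.

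Genes of the sperm tail and its energy supply formed the largest group. Of 48 measured genes 17 followed Prm2 (97 of all 20358 genes did), and 20 were higher on all 3 arrays (1.46% of all genes). The list median difference was 0.74. Ldhc, the lactate dehydrogenase subunit of germ cells, read 9.89, 9.00 and 8.17 on TFA 2, ASP+MSG+TFA 3 and ASP+TFA 2, against 4.93 to 5.72 (median 5.19) on the rest. The gap of 2.45 between ASP+TFA 2 and the highest other array, TFA 3, exceeded the whole range of the 9 arrays. Akap4, the main scaffold of the fibrous sheath, had 9.92, 8.73 and 8.25, against 5.06 to 6.72 (median 5.92). Spata19, a mitochondrial protein of sperm, had 8.75, 8.11 and 7.26 against 4.72 to 5.49 (median 5.07). With its brightest probe set Ldhc differed by 1.61, against 3.78 as reported, whereas Spata19 differed by 5.83. Gapdhs, the sperm form of a glycolytic enzyme, had a mean difference of 2.18 (0.45 with its brightest probe set), and the sperm kinase Pgk2 one of 1.25. Cabs1, a calcium-binding protein of elongating spermatids, differed by 2.29. Odf2, a protein of the dense fibres and also of centrosomes in other cells, was present everywhere at 6.78 or more and differed by 1.11.

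Smcp and Odf1 behaved otherwise. Smcp, which coats the mitochondria of the sperm midpiece, read 11.14, 10.39 and 10.36 on the 3 arrays but also 10.37 on TFA 3, and its lowest and median values on the other arrays were 4.87 and 8.89. Odf1, the major protein of the outer dense fibres, had 9.86, 9.07 and 9.00, with 5.56, 7.91 and 9.21 as the lowest, median and highest of the others. Both groups therefore overlapped for these genes, and on TFA 3 they stood as high as on ASP+TFA 2.

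Among genes of the acrosome and egg binding, 4 of 46 followed Prm2 (97 of all 20358 genes did). On all 3 arrays 9 of the 46 were higher (1.46% of all genes), with a list median of 0.50. Crisp2, an acrosomal and tail protein of the same family as Crisp1, read 11.11, 9.71 and 9.40 against 5.05 to 8.51 (median 7.41), and its correlation with Prm2 was 0.98. Adam5 and Adam3 are membrane proteins of sperm, of which Adam3 is needed for sperm to bind the egg coat. Adam5 read 9.71, 8.55 and 8.03 against 5.29 to 6.22 (median 5.49), and Adam3 differed by 3.06, though by -0.0225 when its brightest probe set alone was read. Zpbp2, which binds the egg coat, differed by 1.91, and by 0.17 with its brightest probe set. Hyal5 and Acrv1, also acrosomal, were higher on all 3 arrays by 1.83 and 1.75 without reaching the correlation limit. The protease Acr, a classical acrosome marker, had 7.10, 6.58 and 5.37 against a highest other value of 5.68 and overlapped.

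The list of spermatid kinases and regulators had 5 of 43 genes that followed Prm2 (97 of all 20358 genes). Higher on all 3 arrays were 10 of the 43 (1.46% of all genes), with a list median of 0.32. Meig1, needed for the protein transport that shapes the spermatid, read 12.42, 11.49 and 10.91 against 6.33 to 9.31 (median 8.57). Gsg1, a partner of the germ cell poly(A) polymerase, had 9.97, 9.19 and 8.56 against 5.25 to 7.96 (median 6.69). Txndc2, a thioredoxin of the tail, differed by 2.53 and Dbil5, an endozepine-like peptide of haploid cells, by 1.76. Tssk2 and Tssk1, kinases of late spermatids, differed by 0.71 and 0.28 and overlapped between the groups.

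In the chromatin list 3 of 13 genes followed Prm2 (97 of all 20358 genes), and these were the markers themselves. Higher on all 3 arrays were 7 of the 13 (1.46% of all genes), with a median difference of 0.84. Not every gene of the list moved. Prm3, which lies between Tnp2 and Prm2 in the RefSeq order, differed by 0.01, and the testis linker histone gene H1f6 by -0.04.

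Of 36 genes of meiotic spermatocytes, 3 followed Prm2 (Mael, Clgn and Adad1), against 97 of all 20358 genes. On all 3 arrays 9 of the 36 were higher (1.46% of all genes), while the other 27 overlapped between the groups. The list median was 0.46, and 0.0473 with the brightest probe set of each gene. Clgn, a chaperone of germ cells, read 8.22, 7.50 and 6.16 against 4.90 to 5.56 (median 5.23), and Adad1, which binds RNA in germ cells, differed by 1.55. Read from the brightest probe set alone, Clgn differed by 0.07 and Adad1 by -0.16. Ddx4, a helicase of germ cells, had 8.61, 6.49 and 6.27 against a highest other value of 6.20, and its excess was mostly on TFA 2. Of 19 spermatogonia genes 0 were higher on all 3 arrays, against 1.46% of all genes, and the median difference was -0.05. So short a list cannot show a share below that of all genes. On TFA 2 alone 4 of the 19 (Dazl, Dmrtb1, Rhox13 and Stra8) lay above all 9 other arrays, against 14.2% of all genes. On ASP+TFA 2 alone 2 did (11.8%) and on ASP+MSG+TFA 3 alone 0 (11.6%).

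Genes of the somatic cells of the testis did not move together on the 3 arrays, but those of Leydig cells were raised on TFA 2. None of 11 Leydig cell and none of 17 Sertoli cell genes was higher on all 3 arrays, and the list medians were 0.21 and 0.003. Over all genes the share was 1.46%, and lists so short cannot show a share below it. The Leydig list median was 7.43 on TFA 2, 5.92 on ASP+MSG+TFA 3 and 6.23 on ASP+TFA 2, against 5.70 to 6.79 on the other arrays. The Sertoli median was 6.04 to 7.10 on the 3 arrays and 5.85 to 7.17 on the other 9. On TFA 2 alone 7 of the 11 Leydig genes lay above all 9 other arrays, against 14.2% of all genes, and on ASP+MSG+TFA 3 and ASP+TFA 2 none did. Hsd3b6, a steroid-making enzyme of Leydig cells, read 8.73 on TFA 2 with a highest other value of 6.79 and had the largest mean difference of the list (1.18). Insl3, a hormone of Leydig cells, read 9.49, 8.31 and 7.85 on the 3 arrays with a highest other value of 8.62. Star, which brings cholesterol to steroid synthesis, read 6.12, 5.61 and 5.57 with a highest other value of 6.12. Of the Sertoli genes 4 of 17 lay above all 9 on TFA 2, and the Sertoli hormone gene Amh read 6.19, 5.41 and 4.71 with a highest other value of 6.16. TFA 2 is an array of raised dim signal, whose part in these values was not tested. Epididymal genes had a median difference of -0.96 because 2 of the 3 arrays lacked them, with a range of list medians from 5.38 to 12.15 on the 3 arrays and from 5.81 to 11.60 on the other 9. Seminal vesicle genes (median difference 0.88) were high only on ASP+TFA 2 among the 3. Of 23 genes of motile cilia 1, Lrrc34, followed Prm2 (97 of all 20358 genes) and 2 were higher on all 3 arrays (1.46% of all genes), with a median of 0.39. On ASP+MSG+TFA 3 alone 13 of the 23 lay above all 9 other arrays, against 11.6% of all genes, and their list median difference there was 0.70. On TFA 2 alone 7 did (14.2%) and on ASP+TFA 2 alone 4 (11.8%).

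**Figure D3:**
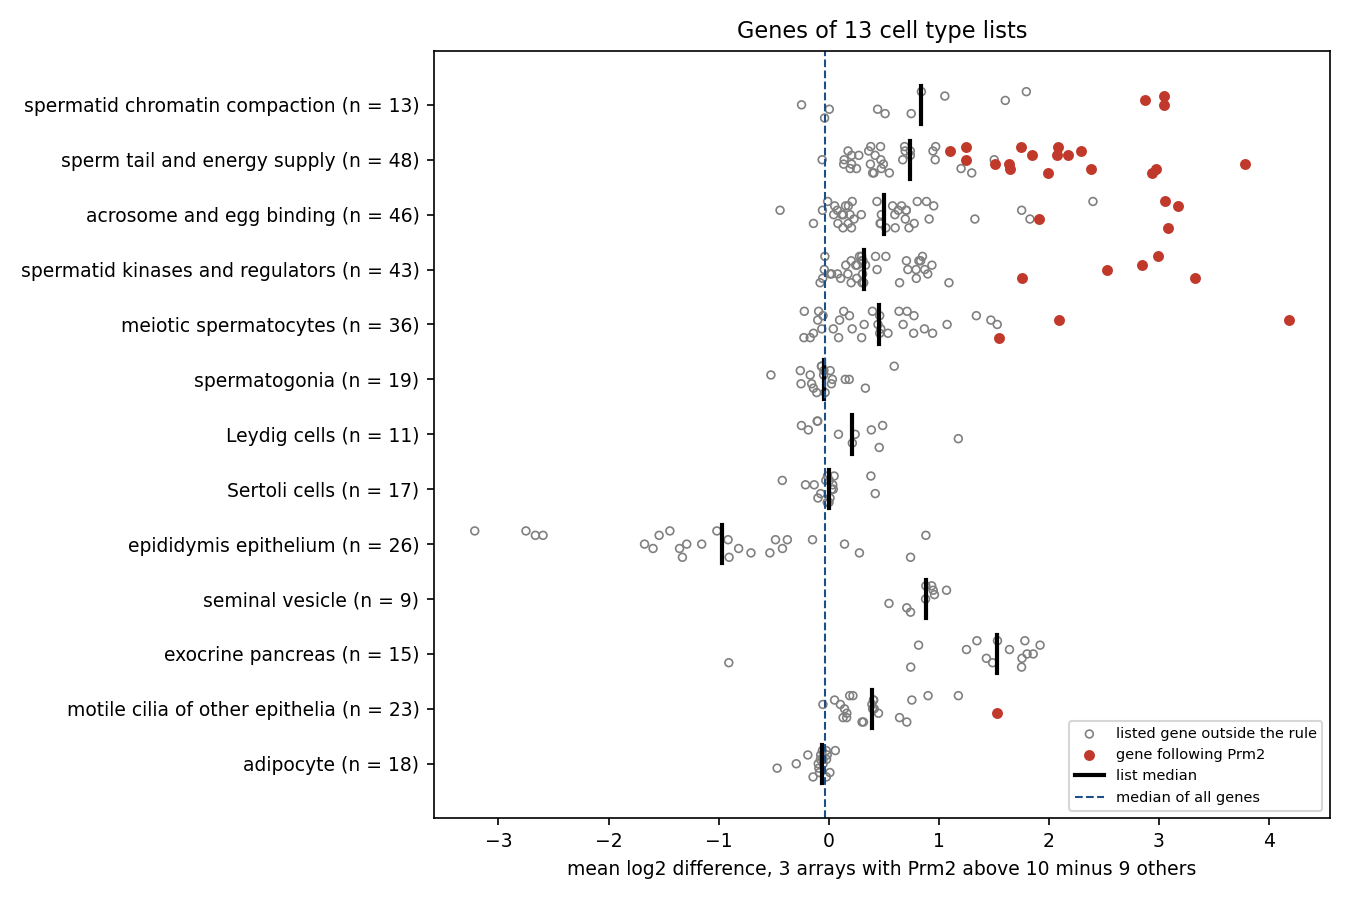
Mean log2 difference (3 arrays with Prm2 above 10 minus the other 9) of each measured gene of 13 cell type lists; filled points follow Prm2, bars are list medians and the dashed line is the median of all genes. Filled points lie in the 5 lists of spermatids and spermatocytes and, once, among genes of motile cilia, and the spermatogonia, Sertoli and adipocyte medians lie close to that of all genes.

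Outside the lists were 64 of the 97 genes, 17 of which carry only a clone-type symbol. Fabp9, the fatty acid binding protein of testis, read 10.62, 9.46 and 8.83 on the 3 arrays against 5.07 to 6.92 (median 6.01). Fhl4, a LIM protein of testis, had 10.09, 9.50 and 8.74 against 5.66 to 7.73 (median 6.36). Llcfc1, needed for sperm to fuse with the egg, had 9.58, 8.39 and 7.94 against 5.29 to 6.38 (median 5.77). Cmtm2a and Spz1, the second a transcription factor of testis, differed by 2.82 and 2.70, and the poly(A)-binding protein Pabpc2 by 2.99. Cross-hybridisation with close relatives such as Cmtm2b or Pabpc1 was not tested.

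Probe sets, most of which are single exons, varied within genes. Of the 836 probe sets of the 97 genes 464 were higher on all 3 arrays (55.5%), and 788 had a higher mean. Among the 212138 probe sets that name 1 gene the share was 0.893%, but a gene value is the median of its probe sets, so the larger share is fixed by the choice of the genes. In 17 genes every probe set was higher on all 3 arrays, among them Crisp2 (9 of 9), Spata4 (6 of 6) and Phf7 (11 of 11). Smcp had 1 of 2 and Odf1 0 of 3.

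Each of the 3 arrays was then left out of the choice. Genes chosen on the remaining 11 arrays were read on the array left out, whose values the choice had not used, although the array itself had been picked for its Prm2. With TFA 2 left out, 51 genes were chosen and all 51 were higher on TFA 2 than on each of the 9 arrays, against 14.2% of all genes. For ASP+MSG+TFA 3 the count was 63 of 66 (95.5%) against 11.6%, the exceptions being Bcl2l14, Odf1 and Vsig1. For ASP+TFA 2 it was 85 of 93 (91.4%) against 11.8%. Median differences of the chosen genes on the array left out were 2.79, 1.99 and 1.19, and those of all genes 0.02, -0.02 and -0.10. The 9 arrays took part in every choice, which favours genes that are low on them. Prm2, by which the 3 arrays were picked, was itself among the chosen genes each time. The shares are therefore a description and no independent check.

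Each of the 3 arrays was also set beside arrays alike in Crisp1, Svs5 and dim signal. Because the 97 genes were chosen on these same arrays, their excess over such a partner is largely fixed by the choice, and it describes sizes only. TFA 2 exceeded MSG+TFA 2, which was likewise low in Crisp1 and raised in dim signal, in 97 of 97 genes and by at least 1 in 96 (2.06% of all genes did so), with a median of 2.51. ASP+MSG+TFA 3 exceeded ASP+TFA 3 in all 97 by at least 1 (2.42%), with a median of 2.39. For ASP+TFA 2 the alike arrays were TFA 3 and ASP+MSG+TFA 1, which also carried Crisp1 and Svs5. Against TFA 3, 92 of the 97 were higher and 33 by at least 1 (2.85%), with a median of 0.81. The 5 that were lower on ASP+TFA 2 were Smcp, Odf1, 1110017D15Rik, Tex35 and Ak8, the last by the most (-0.39). Against ASP+MSG+TFA 1 all 97 were higher and 61 by at least 1 (1.96%), with a median of 1.17. Ldhc still differed by 2.45 from TFA 3, whereas Smcp differed by -0.01.

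Amounts differed between the 3 arrays. Above the mean linear intensity of the other 9 arrays, the excess on TFA 2 was 1.76 times that on ASP+MSG+TFA 3 (median over the 97 genes, quartiles 1.51 and 2.22) and 3.58 times that on ASP+TFA 2 (2.81 and 4.13). Between ASP+MSG+TFA 3 and ASP+TFA 2 the ratio was 1.99 (1.64 and 2.30). By group, the ratio of TFA 2 to ASP+TFA 2 was 2.89 for the 3 chromatin genes, 3.65 for the 17 tail genes, 4.23 for the 4 acrosome genes and 4.86 for the 3 spermatocyte genes. These intensities were normalized across arrays, and the ratios are no estimate of cell numbers. For 87 genes the order of the 3 arrays was that of Prm2, which the correlation rule favours.

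Where Prm2 stayed below 10, the genes varied in 2 ways. Lcn5, a lipocalin of the epididymis, was above 10 on 6 of the 9 arrays and below it on MSG+TFA 2, ASP+TFA 1 and ASP+TFA 3. On the 6 arrays 8 of the 97 genes had a mean at least 1 log2 unit above that on the other 3, against 1.48% of all genes. They were Smcp, Odf1, Prm2, Crisp2, Oaz3, Gsg1, 2810408A11Rik and Cabs1. Prm2 itself differed by 1.83 between these arrays, and the 97 genes were chosen to follow it over all 12. The choice thus favours a share above that of all genes. The difference was 3.80 for Smcp (mean 9.51 on the 6 arrays and 5.71 on the 3), 1.88 for Odf1 and 1.24 for Oaz3, the antizyme of haploid germ cells. Mael differed by 0.73 and Ldhc by 0.37. ASP+TFA 1 showed that Crisp1 did not run with these genes throughout, since Crisp1 read 12.43 and the lipocalin Lcn8 13.31 there, while Lcn5 was at 7.67, Smcp at 6.00 and Odf1 at 6.23. On TFA 3 the reverse was seen, with Lcn8 at 5.28, Lcn5 at 12.44 and Smcp at 10.37. This division of the arrays was made after the values were seen.

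**Figure D4:**
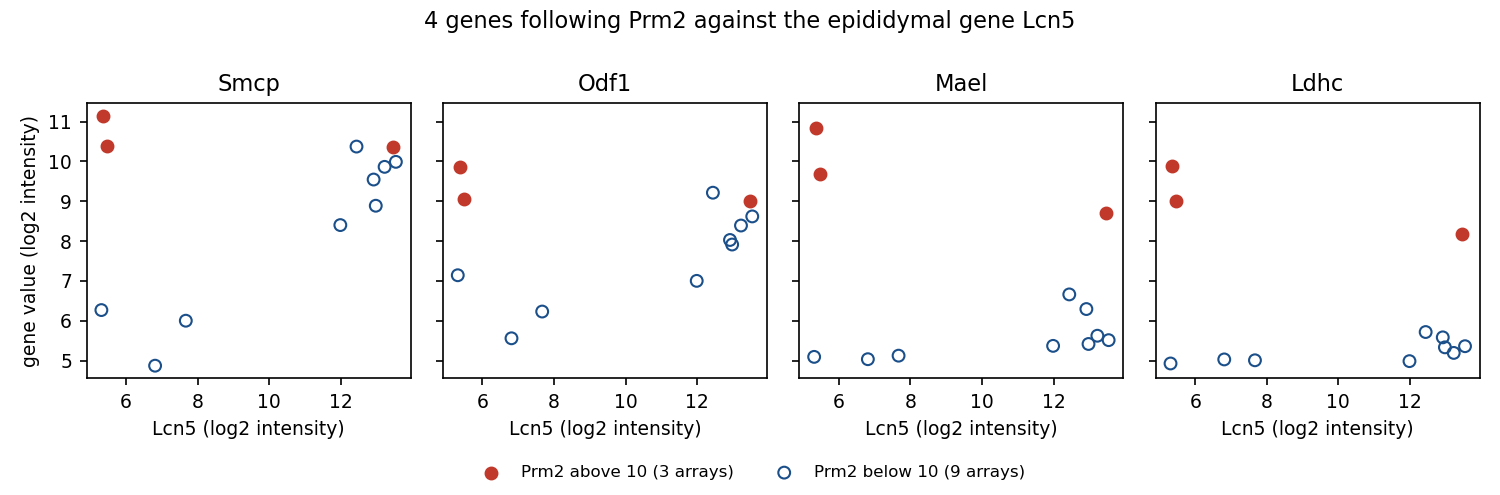
Smcp, Odf1, Mael and Ldhc (vertical axes, log2 intensity) against the epididymal gene Lcn5 (horizontal axes, log2 intensity) on 12 arrays; filled points are the 3 arrays with Prm2 above 10 and open points the other 9. Among open points Smcp lies at 8.40 to 10.37 where Lcn5 is high and at 4.87 to 6.27 where it is low, whereas Ldhc stays between 4.93 and 5.72.

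No diet had Prm2 above 10 on all of its arrays, although Smcp read 8.89 or more on all 3 arrays of ASP+MSG+TFA and of TFA. Arrays with Prm2 above 10 numbered 1 of 3 in ASP+MSG+TFA, 1 of 3 in ASP+TFA, 0 of 3 in MSG+TFA and 1 of 3 in TFA. Prm2 averaged 9.77 ± 1.22 in ASP+MSG+TFA, 7.74 ± 2.44 in ASP+TFA, 8.12 ± 0.72 in MSG+TFA and 9.83 ± 1.94 in TFA (log2 intensity, SD, n = 3 each). Ldhc averaged 6.59 ± 2.10, 6.07 ± 1.82, 5.09 ± 0.24 and 6.98 ± 2.53 in the same order. With limma over all 20358 genes, 0 of the 97 genes were called at an adjusted p under 0.05 and 1.4-fold in any contrast with TFA, and 0% of all genes were. The 97 genes were chosen for high values on 1 array in each of 3 diets, which widens their spread within those diets. Their median SE was 0.71, against 0.21 over all genes, so 0 calls among them was largely fixed by that choice. At an unadjusted p under 0.05 there were 3 of the 97 for MSG+TFA (Ak8, Gk2 and Spa17, all lower), 2 for ASP+TFA (Smcp and Odf1, both lower) and 0 for ASP+MSG+TFA, against 438, 4602 and 5850 of all genes. Arrays of MSG+TFA and TFA with the same number varied together, and those numbered 1 and 2 were the arrays with raised dim signal. With the number as a block in these 2 diets alone, 17 of the 97 had an unadjusted p under 0.05 (1185 of all genes) and 0 were called. Plain analysis of variance contrasts gave 0, 0 and 0 of the 97 at an unadjusted p under 0.05, against 532, 3925 and 5143 of all genes. After adjustment these contrasts called 0 genes. Smcp differed by -3.06 ± 1.29 (SE) between ASP+TFA and TFA, with limma's adjusted p = 0.205. The median difference of the 97 genes was -1.04 for MSG+TFA, -0.82 for ASP+TFA and -0.38 for ASP+MSG+TFA, each against TFA, with all-gene medians of -0.02, -0.04 and -0.05 and a median SE of 0.71 for the 97. The 3 contrasts share the TFA arrays, of which TFA 2 was the richest in Prm2. Among the 3 chosen arrays TFA 2 was the highest for 90 of the 97 genes, so these medians also depend on the choice of the genes. Diet and the makeup of the pools cannot be told apart at 3 arrays per diet. Raised dim signal was seen on TFA 1, TFA 2, MSG+TFA 1 and MSG+TFA 2 and on no array with aspartame. In the contrasts of ASP+TFA and ASP+MSG+TFA with TFA its part therefore cannot be told apart from that of diet.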

How the data were processed

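RNA of mouse visceral fat, pooled per array and about 250 ng of it, was labelled and hybridised to 12 Affymetrix Mouse Gene 1.0 ST arrays. The deposited values are linear intensity, which the authors background-adjusted and quantile normalized; Partek and GCRMA are named in the submitters' processing notes, without versions. No scanner file was used here, and all 12 columns of values were. Array medians were 144.9 to 150.6.

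Intensities were turned to log2. Of 241576 probe sets, 212138 name 1 gene, 4672 several and 24766 none; the first kind gave 20358 genes, each the median of its probe sets (median 8, 2257 genes with 1). Array symbols were updated through the RefSeq gene table of GRCm38.p6 (17626 current, 2743 replaced, 53 kept as given). Such normalization sets each array's distribution alike, so amounts are relative within an array.

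The arrays, the genes and the 13 lists (6 of germ cells) were chosen with earlier results of these data known. Named genes were Prm1, Prm2, Tnp2, Tnp1, the 20 genes following Prm2 with the largest difference and an informative symbol, up to 6 per germ cell list, up to 4 of highest level per other list, and 3 on each side of the correlation limit; others are named where a result turns on them and were chosen after their values were seen. Diets were compared with limma 3.58.1 in R 4.3.3 (lmFit and eBayes, 1 mean per diet, Benjamini-Hochberg over all genes, two-sided), which was tested on simulated data. Its p-values measure the spread between pools, whose number limits the precision. Replicate numbers are shared between diets, and deviations of MSG+TFA and TFA arrays with the same number correlated at 0.59 to 0.66 in all 3 pairs. This pairing was seen in the data and is not stated in the labels. In both diets arrays 1 and 2 had raised dim signal and array 3 did not. The part of dim signal in these correlations was not tested. In the other diet pairs the correlations ran from -0.55 to 0.54 and at least 1 of 3 did not exceed 0.1, so these were not read as pairs. Alternatives covered the correlation and difference limits, the guide gene, the probe set summary, dim genes, the model and each array left out. Other steps used Python 3.11.15, pandas 2.3.3, numpy 2.4.6 and matplotlib 3.10.9.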

Additional observations from a re-analysis of the deposited data

How the results depend on the processing

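The number of genes following Prm2 depended on the limits. It was 97 as reported, 171 at a correlation of 0.7, 18 at 0.9, 41 with a difference of at least 2, 58 with Spearman correlation (57 shared), 191 with Tnp2 as guide (93 shared) and 39 without dim genes. Leaving out 1 array gave 51 to 136, the lowest without TFA 2 and the highest without TFA 3. With the brightest probe set of a gene 95 followed Prm2, 49 of them shared, and with the mean 94, 79 shared. Genes higher on all arrays with Prm2 above 10 numbered 297, 148 with the brightest probe set, 90 without dim genes, 788 without the 4 arrays with raised dim signal (71 followed Prm2 there, 62 shared) and 299 to 588 with 1 array left out (494 without TFA 2, 588 without ASP+TFA 2). Prm2 exceeded 10 on the same 3 arrays with the mean, and on 4 with the brightest probe set, the fourth being TFA 3, which then read just over 10; the alternatives kept the 3 arrays. The median difference of the 97 genes was 1.57 to 2.11 with 1 array left out, 1.34 and 1.58 with the other summaries, and 2.51 for TFA 2 minus MSG+TFA 2, 0.81 for ASP+TFA 2 minus TFA 3 and 1.17 for ASP+TFA 2 minus ASP+MSG+TFA 1. Comparisons with raised dim signal or matched arrays were added after seeing the data.

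Among 31 named genes following Prm2, 462 of 465 values under alternatives kept their direction. With the brightest probe set Adam3 read -0.0225, Adad1 -0.16 and Mlf1 -0.16, Mael fell to 0.11, and the spermatocyte list median was 0.0473. Fdx1, a Leydig cell gene, differed by 0.43 with the brightest probe set and 0.0742 with the mean, against -0.25 as reported; the cause was not tested. In none of 57 diet settings was one of the 97 called, which the choice of these genes largely fixes. With a replicate block none of the 97 was called in any contrast, and 2 of all genes were for ASP+MSG+TFA, against 0 as reported. A block with only the 2 diets compared, added after seeing the data, called 0 of all genes in each contrast. At an unadjusted p under 0.05 it gave 57 of the 97 for ASP+TFA (2803 of all genes) and 0 for ASP+MSG+TFA (4653). TFA 2 and ASP+TFA 2 share a replicate number, were both chosen for high Prm2 and were not read as a pair. The block takes up much of the excess for which the 97 genes were chosen, which largely fixes the count of 57. Without TFA 3, 5413 genes were called for ASP+TFA and 6042 for ASP+MSG+TFA, none of them among the 97. The TFA arrays then left, TFA 1 and TFA 2, both had raised dim signal, which no aspartame array had. The part of dim signal in these calls cannot be told apart from that of diet. Dim signal limits 80 of the 97 genes, and 3 arrays per diet limit every test.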

Other observations

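Beyond the 97 genes, 206 genes were higher on all 3 arrays with Prm2 above 10 than on all 9 others, and 80 of these differed by at least 1 log2 unit but stayed under the correlation limit. The largest were Ms4a20 (2.28), 1700029F12Rik (2.05), Fam71e2 (2.03) and Spata48 (1.95), named after their values were seen. They include Catsperz, an auxiliary part of the calcium channel of the sperm tail (1.93), and Syce1, a protein of the synaptonemal complex that joins chromosomes in meiosis, with 7.23, 6.64 and 6.70 on TFA 2, ASP+MSG+TFA 3 and ASP+TFA 2 against a highest other value of 5.61.

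Some probe sets without a gene name also met the rule, though no larger share of them was higher on all 3 arrays. Of 24766 such probe sets, 159 (0.642%) were higher on all 3 arrays, against 0.893% of the probe sets that name 1 gene. The rule for following Prm2 was met by 26 (0.105%), with differences from 1.15 to 4.22 and a median of 2.40.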
